A study of Mus musculus with 12 samples.

Results

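RAW264 is a mouse macrophage cell line. The genes described here are the 62 of 9621 listed genes whose mean deposited value over the 6 ribosome-protected fragment (RPF, or footprint) libraries was at least 8 times their mean over the 6 mRNA libraries, with replication-dependent histone genes left out by symbol. Of the 116 genes past that ratio, 54 were such histones. Among the 62 genes, 54 had a symbol and 8 had an Ensembl identifier only, so that the histone rule could not be applied to those 8. RPF and poly(A) mRNA were measured in 3 treatments: 30 min of LPS (lipopolysaccharide, a bacterial cell wall component, 100 ng/ml) with DEX (dexamethasone, a synthetic glucocorticoid, 10 µM), 30 min of LPS alone at the same dose, and no treatment (basal). All cells received cycloheximide, which holds ribosomes on mRNA, at 100 µg/ml before extraction. Each of the 6 groups has 2 independent biological replicates.

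Ribosome profiling digests RNA that ribosomes do not cover and sequences what is left, so a translated mRNA gives many short fragments along its coding sequence. Fragments protected by other proteins, or folded small RNAs of a similar length, can enter the same library. The mRNA libraries hold poly(A) RNA, and transcripts without a poly(A) tail, such as those of replication-dependent histones, are depleted from them while their footprints are not. The deposited files give 1 value per gene and library. Fragment lengths, reading frame and positions within a gene are not in them, and whether the fragments of any gene named here came from ribosomes was not tested.

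Library depth was 821946 to 1833560 reads for RPF and 1475120 to 2529666 reads for mRNA, and 3 reads correspond to 1.19 to 3.65 CPM (reads scaled to the total of the library). Among the mRNA libraries basal replicate 1 was unlike the others, with Spearman correlations across genes of 0.781 to 0.831 with the other mRNA libraries, against 0.894 to 0.98 among those. Macrophage markers were listed for 10 of 10 genes (summed CPM 6679 to 7627 in RPF and 5263 to 5962 in mRNA). Of the markers of other cells, 1 of 6 epithelial genes was listed (Krt7, at 1108 CPM in mRNA of basal replicate 1 and under 3 CPM elsewhere) and 1 of 5 fibroblast genes, while no T cell, B cell or erythroid marker was. The fibroblast gene was Col3a1, a fibrillar collagen. Its deposited values (CPM plus 1) in RPF were 135 and 129 in LPS + DEX libraries, 66.1 and 61.8 in LPS libraries, and 143 and 116 in basal libraries. In mRNA they were 76.1 and 62.6 in LPS + DEX libraries, 47.7 and 52.4 in LPS libraries, and 4.39 and 17.2 in basal libraries.

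The RPF over mRNA ratio of the 62 genes had a median of 18.3 and ran between 8.07 and 443. This ratio chose the genes and is given as a description. Their median value was 175 in RPF and 3.69 in mRNA (deposited values, CPM plus 1), while the 9505 remaining genes had medians of 35.8 and 36.4. The 62 genes held 1.54% to 2.71% of the reads of an RPF library and 0.0371% to 0.0677% of those of an mRNA library. Much of the mRNA side rests on few reads, with 25 of the 62 genes at 20 or fewer mRNA reads over all 6 libraries. The lowest RPF value lay above the highest mRNA value for 47 of the 62 genes, and for 21.3 percent of all listed genes. The ratio reached 8 in 37 genes in LPS + DEX libraries, in 51 in LPS libraries and in 50 in basal libraries, and 28 genes reached it in all 3 treatments.

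**Figure D1:**
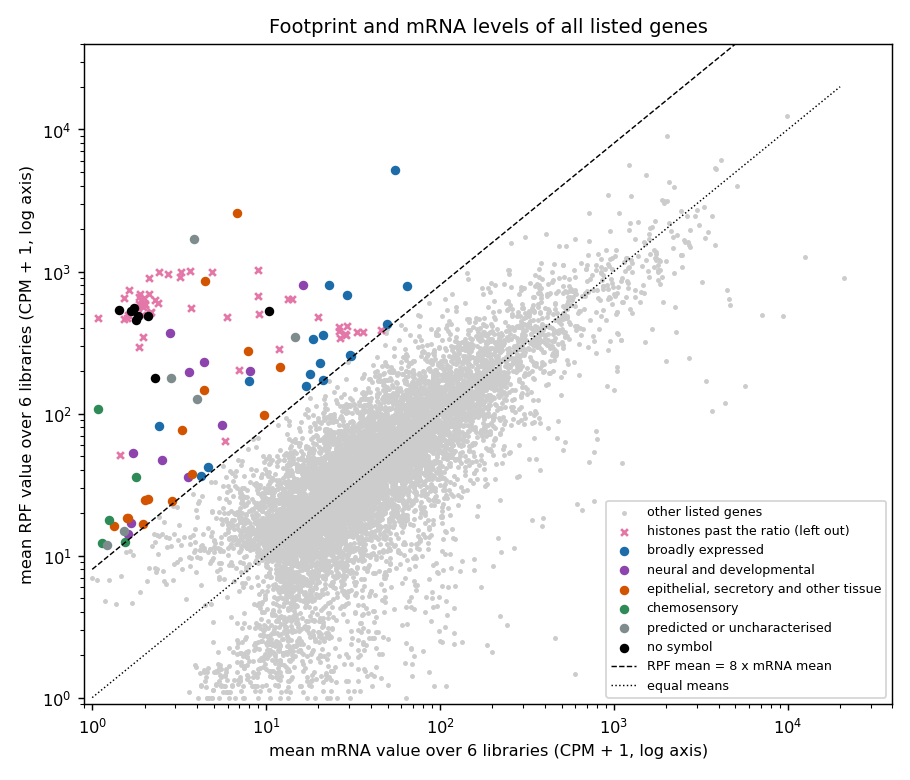
Mean RPF value (y axis) against mean mRNA value (x axis) over 6 libraries each, both as CPM plus 1 on log axes, for all listed genes, with the chosen genes coloured by role group and histones past the ratio as crosses. The 62 chosen genes lie on or above the dashed line at a ratio of 8, and those without a symbol (black) lie among the histones.

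By RefSeq annotation, 51 of the 62 genes (82.3%) are protein-coding, against 95.5% of all listed genes. Gm12830 is annotated as a long non-coding RNA and Stk-ps2 as a transcribed pseudogene, and 9 genes had no RefSeq match. By symbol, none of the 54 named genes is a ribosomal protein gene, a mitochondrially encoded gene or a known snoRNA host. These symbol classes hold 0.904%, 0.135% and 0.0104% of all listed genes, so that their absence among 54 genes says little. How the authors treated strand, overlapping genes and near-identical copies, such as those among vomeronasal receptors or pseudogenes, is not known here, and reads shared between such genes cannot be told apart. Of the 53 genes matched to RefSeq, 3 (5.66%) have a small RNA gene inside their span, against 869 of 9421 matched listed genes (9.22%). All 3 hold a microRNA, which is 5.66% against 4.90% (462 genes) of all matched genes, and none holds a snoRNA, snRNA, tRNA or rRNA gene. Of all matched listed genes, 2.52%, 1.80%, 0.212% and 0.0318% do so, and none among 53 lies near those shares. The mature microRNAs, of 21 to 23 bases, are shown here because a value per gene does not separate a small RNA from the gene around it. Whether their reads are in the values of Actr5, Zfhx3 and Vwa5b2 was not tested, and the strands of gene and microRNA were not compared. Capitals mark the seed (bases 2 to 8), the sequences are RefSeq's (GRCm38.p6), and no seed is shared.
mmu-miR-3474, inside Actr5 on chromosome 2: cCCUGGGAggagacguggauuc
mmu-miR-3108-5p, inside Zfhx3 on chromosome 8: gUCUCUAAagcuagacguuccgg
mmu-miR-3108-3p, inside Zfhx3 on chromosome 8: cGUCUAGGucuagagucucaa
mmu-miR-1224-5p, inside Vwa5b2 on chromosome 16: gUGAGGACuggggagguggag
mmu-miR-1224-3p, inside Vwa5b2 on chromosome 16: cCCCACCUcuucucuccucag

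The 54 genes with a symbol were sorted by known role, after their values had been seen. They comprise 17 broadly expressed genes, 15 of epithelia, secretion or other single tissues, 11 neural and developmental genes, 5 chemosensory genes, and 6 predicted or uncharacterised ones. In each gene below, CPM values (the deposited value minus 1) are given with replicate 1 before replicate 2.

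The broadly expressed genes had the highest mRNA levels (median value 21.2, against 3.69 over all 62 genes) and the lowest median ratio of the named groups, 11. Actr5, a subunit of the INO80 chromatin remodelling complex, was the most abundant of the 62 genes in footprints. It had 10436 and 12839 CPM in the LPS + DEX libraries, 2567 and 2052 CPM in the LPS libraries, and 2958 and 176 CPM in the basal libraries. In mRNA it had 59.7 and 121 CPM in the LPS + DEX libraries, 46.7 and 42.6 CPM in the LPS libraries, and 28.5 and 24.9 CPM in the basal libraries. Both LPS + DEX RPF libraries lay above the other 4, and there Actr5 had rank 2 among all listed genes. Basal replicate 2 lay far below the rest, at rank 1158. Tfrc, the transferrin receptor, had 703 and 634 CPM in the LPS + DEX libraries, 933 and 948 CPM in the LPS libraries, and 758 and 746 CPM in the basal libraries, with 47.8 to 76.2 CPM in mRNA and a ratio of 12.2. All 6 of its footprint values lay within 1.49-fold of each other (deposited values). Acsl4, which activates arachidonic acid, was as even, at 237 to 289.6 CPM in RPF and 20.2 to 39.6 CPM in mRNA. So were Rlim, a ubiquitin ligase (148 to 204 CPM in RPF), and Emc1, a subunit of the endoplasmic reticulum membrane complex (139 to 174 CPM in RPF). H2afx, a histone variant whose transcripts are known both with and without a poly(A) tail, had 372 to 562 CPM in RPF and 24.4 to 66.4 CPM in mRNA. Dpysl2, a microtubule-binding protein of axon growth, had 139.9 to 215 CPM in RPF and 1.62 to 13.6 CPM in mRNA. Zfhx3, a zinc finger homeobox transcription factor with Mir3108 inside its span, had 362 and 168 CPM in the LPS + DEX libraries, 511 and 516 CPM in the LPS libraries, and 222 and 358 CPM in the basal libraries, with 7.04 to 45.4 CPM in mRNA. Its LPS replicates were level and the highest. In RPF, Ints6, a subunit of the Integrator complex, had 116 to 246 CPM, the adhesion protein Nectin3 24.1 to 77.6 CPM and the leucine-rich repeat protein Lrrc58 at least 22.4 CPM in each library.

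Genes of epithelia, secretion and other tissues were the most uneven group. The highest RPF library exceeded the lowest by a median of 68.4-fold over these 15 genes (deposited values), against 3.06-fold over the broadly expressed ones. Ccdc33, a coiled-coil protein, had 587 and 99.8 CPM in the LPS + DEX libraries, 663 and 3124 CPM in the LPS libraries, and 654 and 25.0 CPM in the basal libraries. Its replicates parted in the LPS + DEX, the LPS and the basal group. Both LPS libraries lay above the other 4, but LPS replicate 1 (663 CPM) only just above basal replicate 1 (654 CPM). The LPS + DEX and basal values overlapped. Vwa5b2, a von Willebrand factor A domain protein with Mir1224 inside its gene span, had 54.4 and 21.8 CPM in the LPS + DEX libraries, 158 and 1339.5 CPM in the LPS libraries, and 80.9 and 1.97 CPM in the basal libraries. A single library, LPS replicate 2, held 80.9% of its summed RPF CPM. Otop2, a proton channel, had 1.81 and 0 CPM in the LPS + DEX libraries, 95.2 and 3.65 CPM in the LPS libraries, and 3.05 and 0 CPM in the basal libraries, so that LPS replicate 1 held 91.8% of its sum. Large2, a glycosyltransferase of dystroglycan, had 2.42 and 0.545 CPM in the LPS + DEX libraries, 27.7 and 105 CPM in the LPS libraries, and 2.29 and 0.658 CPM in the basal libraries, and LPS replicate 2 held 75.7% of the sum. Folh1, a folate hydrolase, had 6.65 and 2.73 CPM in the LPS + DEX libraries, 33.8 and 35.3 CPM in the LPS libraries, and 3.05 and 9.21 CPM in the basal libraries, and both LPS libraries lay above the other 4. Lipn, an epidermal lipase, had 8.40 to 65.1 CPM and the pancreatic water channel Aqp12 8.73 to 27.2 CPM in RPF, with at most 2.36 CPM in mRNA.

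The 11 neural and developmental genes had a median ratio of 24.5 and a median highest over lowest RPF of 10.8-fold. Dchs1, a protocadherin of planar cell polarity, led them in footprints at 1686 and 1132 CPM in the LPS + DEX libraries, 289 and 118 CPM in the LPS libraries, and 635 and 977 CPM in the basal libraries, with mRNA at 4.33 to 24.5 CPM. Its 3 groups did not overlap in RPF, with the LPS + DEX libraries highest and the LPS libraries lowest. Mdga2, a cell surface protein that binds neuroligins, had 466 and 388 CPM in the LPS + DEX libraries, 538 and 372 CPM in the LPS libraries, and 189 and 264 CPM in the basal libraries, on 21 mRNA reads in all. Its replicates lay close, and both basal libraries lay below the other 4. Igdcc4, an immunoglobulin superfamily protein, had 78.0 and 87.3 CPM in the LPS + DEX libraries, 125 and 206 CPM in the LPS libraries, and 788 and 100.6 CPM in the basal libraries in RPF, and basal replicate 1 held 56.9% of the sum. The synaptic adhesion protein Nrxn2 had 24.5 to 162 CPM, the neuronal chromatin remodeller Chd5 68.2 to 418 CPM and the neural splicing factor Srrm3 28.9 to 409 CPM in RPF. Tcf7l1, a transcription factor of Wnt signalling, had 52.0 and 10.9 CPM in the LPS + DEX libraries, 98.9 and 105 CPM in the LPS libraries, and 8.40 and 0.658 CPM in the basal libraries. Pou3f1, a transcription factor of Schwann cells, had 67.1 and 25.1 CPM in the LPS + DEX libraries, 18.1 and 10.9 CPM in the LPS libraries, and 80.9 and 6.58 CPM in the basal libraries, with basal replicate 1 highest and basal replicate 2 lowest. Reep2, which shapes the endoplasmic reticulum, had 1.09 to 50.4 CPM and Tcerg1l 3.65 to 20.6 CPM in RPF.

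The 5 chemosensory genes encode the vomeronasal receptors Vmn1r53, Vmn1r176 and Vmn1r224, the bitter taste receptor Tas2r135, and H2-M10.2, an MHC class I molecule of vomeronasal neurons. Together they had 1 to 9 mRNA reads per gene over the 6 libraries. Vmn1r176 had 74.4 and 72.5 CPM in the LPS + DEX libraries, 218 and 141 CPM in the LPS libraries, and 29.0 and 100.0 CPM in the basal libraries, with 1 mRNA read in all. Tas2r135 had 6.54 to 27.6 CPM and Vmn1r53 6.0 to 27.6 CPM in RPF. H2-M10.2 had 0.605 and 1.09 CPM in the LPS + DEX libraries, 1.21 and 0 CPM in the LPS libraries, and 35.9 and 30.3 CPM in the basal libraries, and only its basal libraries stood above the worth of 3 reads.

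Among the predicted genes, Gm42743 had the highest ratio of all, 443, and one of the steadiest levels, at 1382 and 1401 CPM in the LPS + DEX libraries, 1701 and 1655 CPM in the LPS libraries, and 1969.8 and 2052 CPM in the basal libraries, with 0.678 to 3.99 CPM in mRNA. 4933405L10Rik had 601 and 198 CPM in the LPS + DEX libraries, 673 and 459.9 CPM in the LPS libraries, and 134 and 6.58 CPM in the basal libraries, and basal replicate 2 was again far below its partner. The pseudogene Stk-ps2 had 116 and 62.2 CPM in the LPS + DEX libraries, 248 and 181 CPM in the LPS libraries, and 268 and 189 CPM in the basal libraries, with 0 to 4.35 CPM in mRNA. In RPF, Fam186b had 64.5 to 328 CPM, Cd164l2 0 to 31.6 CPM and the non-coding Gm12830 1.64 to 22.9 CPM, which with 71 RPF reads had the fewest of the 62 genes.

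The 8 genes without a symbol resembled the left-out histones in median level and evenness. Their median value was 504 in RPF and 1.80 in mRNA, with a median ratio of 261, and the 54 histones past the ratio had 554, 2.34 and 253. The highest RPF library exceeded the lowest by a median of 1.46-fold in the 8 genes and 1.85-fold in the histones. ENSMUSG00000099100 stood apart, with a mean RPF value of 177 and a span of 2.89-fold, where no histone past the ratio exceeded 2.58-fold. ENSMUSG00000059309, for example, had 517 and 587 CPM in the LPS + DEX libraries, 535 and 504 CPM in the LPS libraries, and 456 and 587 CPM in the basal libraries in RPF and 5 mRNA reads in all. ENSMUSG00000096807 had mRNA of 52.2 CPM in basal replicate 1 and at most 1.77 CPM in the other 5 mRNA libraries, and its ratio was 50.6. What these 8 genes encode is not given by the annotation used here.

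**Figure D2:**
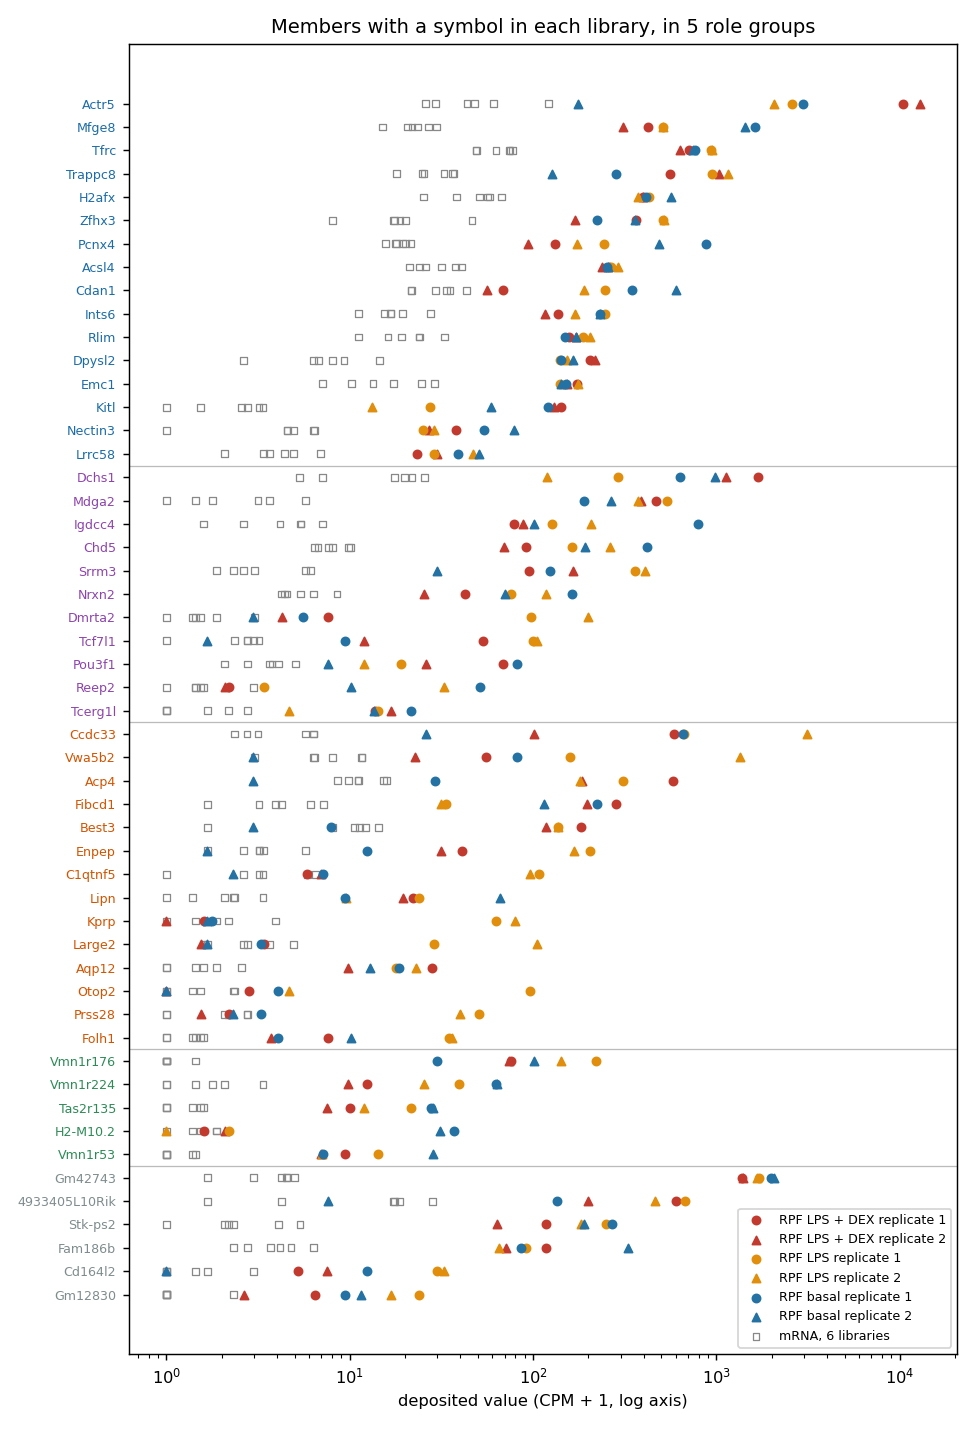
RPF value in each library (filled symbols, coloured by treatment, circles for replicate 1 and triangles for replicate 2) and mRNA value in the 6 libraries (open squares) for 52 of the 54 genes with a symbol, as CPM plus 1 on a log axis, grouped by role. Footprint symbols are tightly packed for Tfrc, Acsl4, Rlim and Gm42743 and spread over more than 10-fold for Actr5, Ccdc33 and Vwa5b2.

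Replicates of a group differed far more in these genes than in the rest. Of 61 genes that passed the filter on low values (all but Otop2), 3 (4.92%) differed over 4-fold between the LPS + DEX RPF replicates, against 0.0458% of the 8732 remaining genes. In the LPS group 3 (4.92%) did so, against 0.389%, and in the basal group 15 (24.6%), against 43 genes or 0.492%. In 13 of those 15, and in 40 of the 43, basal replicate 1 was the higher. All 3 in the LPS + DEX group had replicate 1 higher, and all 3 in the LPS group had replicate 2 higher. Among the remaining genes, replicate 1 was higher in 3 and replicate 2 in 1 in LPS + DEX, and in 10 and 24 in LPS. Among genes with a mean of at least 50 CPM in RPF, 9 of 42 (21.4%) differed over 4-fold in the basal group, against 7 of 3658 (0.191%). A single high library raises the mean that chose the genes, so these shares are a description. The 54 histones, which passed the same ratio, had no such gene in any treatment.

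Over the 6 RPF libraries, 23 of the 62 genes (37.1%) spanned more than 10-fold (deposited values), against 128 (1.35%) of the remaining genes, and 12 genes spanned less than 2-fold. The 23 comprised 11 of 15 genes of epithelia, secretion and other tissues, 6 of 11 neural and developmental genes, 3 of 17 broadly expressed ones, 2 of 6 predicted ones, 1 of 5 chemosensory ones and 0 of 8 without a symbol. In deposited values, basal replicate 1 was 27.5-fold above replicate 2 for Vwa5b2, 25.2-fold for Ccdc33 and 16.8-fold for Actr5. The basal mRNA libraries of Actr5 had 28.5 and 24.9 CPM.

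**Figure D3:**
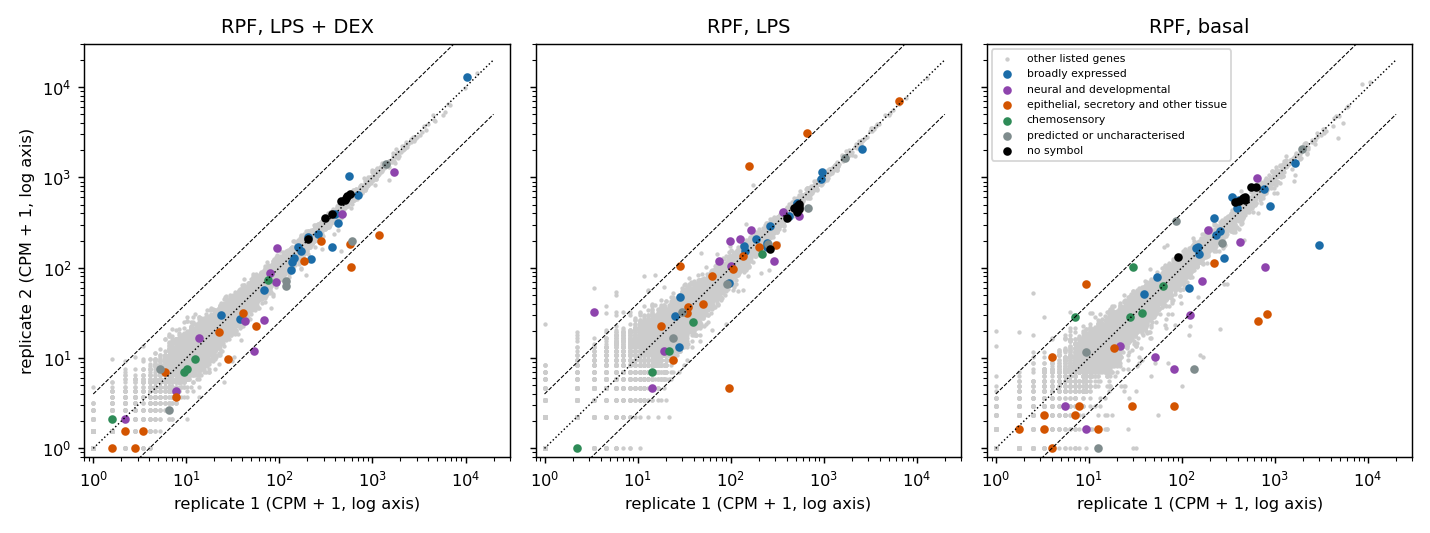
RPF value of replicate 2 (y axis) against replicate 1 (x axis) in LPS + DEX, LPS and basal libraries, as CPM plus 1 on log axes, with equality dotted and 4-fold differences dashed. In basal libraries 13 of the tested chosen genes lie below the lower dashed line, while genes without a symbol (black) stay near equality.

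Just inside the ratio of 8 lay H2-M10.2 (8.07), Rlim (8.17) and Cdan1 (8.18), and just outside it lay Xpnpep2 (7.89), Taf4 (7.83) and 4933412E24Rik (7.70). Taf4, a TFIID subunit, had 65.9 and 48.5 CPM in the LPS + DEX RPF libraries, 174 and 819 CPM in the LPS libraries, and 256 and 19.7 CPM in the basal libraries. Membership held for 45 of the 62 genes whichever library was left out of the means. Without LPS replicate 1 the ratio of Otop2 was 1.69, and without LPS replicate 2 that of Large2 was 2.69.

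Whether LPS changed the footprints of these genes was tested for LPS against basal cells with limma over all 8847 genes that passed the filter. Footprints of 20 of the 61 tested genes were higher and those of 13 lower at an adjusted p under 0.05, which is 54.1%, where 7.62 percent of all genes tested passed (3.3 percent higher and 4.32 percent lower). Under median-of-ratios scaling the genes split into 21 higher and 12 lower, while the split over all genes turned to 385 higher and 277 lower, against 292 and 382. In these bulk libraries a large change in few cells and a small change in all cells cannot be told apart. The treated and basal levels enter the ratio that chose the genes. limma also draws each gene's variance partly from the other genes tested, whose replicates mostly lay closer, so the 54.1% may be too high. Of the 61 genes, 6 reached the level of the filter (10 reads at median depth) in libraries of 1 treatment only: Kprp, Prss28, Large2, C1qtnf5 and Dmrta2 in LPS libraries and H2-M10.2 in basal libraries. A difference from that treatment was fixed by the choice of these 6, so their values are a description, with no test. Among the other 55 genes, 15 were higher and 12 lower (49.1%). Among the 43 tested genes past a ratio of 8 in the LPS + DEX libraries alone, which this contrast does not compare, 19 (44.2%) passed.

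Genes of epithelia, secretion and other tissues had 6 increases and 1 decrease among the 10 tested that reached the filter level in more than 1 treatment, with a median log2 fold change of 4.06 (-0.07 over all genes tested). These levels also entered the choice of the genes, and the group was formed after they were seen. Enpep, an aminopeptidase that processes angiotensin, had 39.9 and 30.5 CPM in the LPS + DEX libraries, 203 and 167 CPM in the LPS libraries, and 11.4 and 0.658 CPM in the basal libraries, and changed by 5.35 ± 0.60 (SE, adjusted p = 9.22e-05) on the log2 scale, or by 6.80 without basal replicate 1 and 3.89 without basal replicate 2. Best3, a chloride channel of the bestrophin family, had 182 and 117 CPM in the LPS + DEX libraries, 135 and 135 CPM in the LPS libraries, and 6.87 and 1.97 CPM in the basal libraries, and changed by 4.81 ± 0.34 (SE, adjusted p = 1.18e-06), or by 5.52 and 4.11 without basal replicate 1 or 2. Both LPS libraries of either gene lay well above both basal libraries. C1qtnf5, a C1q-related protein of the retinal pigment epithelium, had 4.84 and 6.0 CPM in the LPS + DEX libraries, 106 and 94.9 CPM in the LPS libraries, and 6.11 and 1.32 CPM in the basal libraries. Kprp, a protein of keratinocytes, had 0.605 and 0 CPM in the LPS + DEX libraries, 61.5 and 79.1 CPM in the LPS libraries, and 0.763 and 0.658 CPM in the basal libraries. It had 1 and 0 reads in the LPS + DEX libraries, 51 and 65 reads in the LPS libraries, and 1 read in each basal library, and no fold is given. Prss28, a serine protease of the uterus, had 2 and 1 reads in the LPS + DEX libraries, 41 and 32 reads in the LPS libraries, and 3 and 2 reads in the basal libraries. The high values of these 3 genes were those of the LPS libraries, through which they passed the filter. Vwa5b2 also passed (adjusted p = 0.0166), but not with limma-voom, not without the filter, and not without LPS replicate 2 or either LPS + DEX replicate. Fibcd1, an endocytic receptor for acetylated groups, was the decrease of this group, at 281 and 196 CPM in the LPS + DEX libraries, 32.6 and 30.4 CPM in the LPS libraries, and 221 and 113 CPM in the basal libraries, a change of -2.29 ± 0.24 (SE, adjusted p = 6.6e-05).

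Of 17 broadly expressed genes, 2 rose and 6 fell. Trappc8, a vesicle tethering subunit, had 558 and 1028 CPM in the LPS + DEX libraries, 950.1 and 1155 CPM in the LPS libraries, and 282 and 126 CPM in the basal libraries, and changed by 2.47 ± 0.29 (SE, adjusted p = 0.00015), all 4 treated values lying above both basal ones. Mfge8, a secreted protein that bridges phagocytes to apoptotic cells, had 421 and 309 CPM in the LPS + DEX libraries, 510.0 and 512 CPM in the LPS libraries, and 1622 and 1434 CPM in the basal libraries, and changed by -1.58 ± 0.12 (SE, adjusted p = 2.39e-06). Both basal values of Mfge8 lay above the other 4, and its mRNA had 28.9 and 20.8 CPM in the LPS + DEX libraries, 26.0 and 22.4 CPM in the LPS libraries, and 19.7 and 14.1 CPM in the basal libraries. Kitl, the ligand of the receptor KIT, changed by -2.14 ± 0.32 (SE, adjusted p = 0.000947), and Pcnx4, a membrane protein, by -1.67 ± 0.23 (SE, adjusted p = 0.000497). Tfrc changed by 0.32 ± 0.08 (SE, adjusted p = 0.0314), a call lost without the filter and also when any 1 of the LPS or LPS + DEX libraries was left out. Of 11 neural and developmental genes, Dmrta2, a transcription factor of cortical development, had 6.65 and 3.27 CPM in the LPS + DEX libraries, 96.5 and 198 CPM in the LPS libraries, and 4.58 and 1.97 CPM in the basal libraries, and passed the filter through its LPS libraries. Of the other 10, 3 rose and 1, Dchs1, fell. Dchs1 changed by -2.09 ± 0.30 (SE, adjusted p = 0.000708), or by -2.73 and -1.44 without LPS replicate 1 or 2, and the call was lost without the filter. Dchs1, Kitl and Fibcd1 shared their direction in RPF with Col3a1, which lay lower in both LPS than in both basal libraries, and its part in these changes was not tested. Of 5 chemosensory genes, H2-M10.2 had 1 and 2 reads in the LPS + DEX libraries, 1 and 0 reads in the LPS libraries, and 47 and 46 reads in the basal libraries, and passed the filter through its basal libraries. Of the other 4, 1 rose and 1 fell. Of the 8 genes without a symbol, 1 rose and 2 fell.

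**Figure D4:**
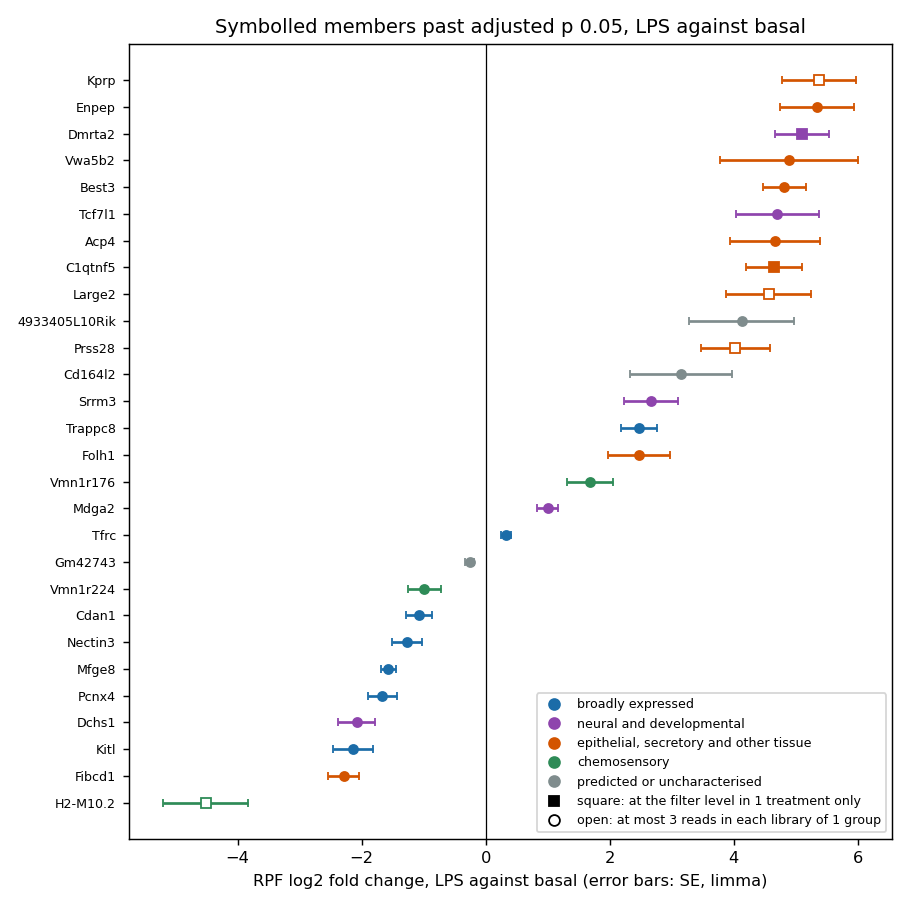
Log2 fold change of footprints, LPS against basal (x axis), for 28 of the 30 symbolled genes past an adjusted p of 0.05, with limma's SE as error bars and colours for role groups; open symbols mark fitted values that rest on at most 3 reads in each library of 1 group and are no bound, and squares mark genes at the filter level in 1 treatment only, whose difference the choice fixed. Orange symbols (epithelia, secretion and other tissues) make up 9 of the 18 on the right. They include the squares of Kprp, Prss28, Large2 and C1qtnf5, so this share is a description, with no test. Tfrc and Gm42743 lie closest to 0.

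What DEX added to LPS was tested as LPS + DEX against LPS, which shares its LPS libraries with the contrast above. Footprints of 5 genes were higher and of 22 lower, or 44.3%, where 6.69 percent of all genes tested passed (3.14 percent higher and 3.55 percent lower). Without the 6 genes at the filter level in 1 treatment only, 5 were higher and 17 lower (40.0%). Among 104 genes past the ratio in basal libraries alone, 30 (28.8%) passed. The count of 27 was 17 without LPS replicate 1, 16 without LPS replicate 2, 16 without LPS + DEX replicate 1 and 10 without LPS + DEX replicate 2. Of the 10 genes of epithelia, secretion and other tissues at the filter level in more than 1 treatment, 3 fell and 1 rose. Cdan1, a protein mutated in a human dyserythropoietic anaemia, had 67.7 and 55.1 CPM in the LPS + DEX libraries, 247 and 189 CPM in the LPS libraries, and 347 and 603 CPM in the basal libraries, and changed by -1.80 ± 0.21 (SE, adjusted p = 0.00012). The increases included Dchs1 at 2.89 ± 0.30 (SE, adjusted p = 5.12e-05), Fibcd1 at 2.86 ± 0.24 (SE, adjusted p = 6.27e-06), Kitl at 2.83 ± 0.32 (SE, adjusted p = 0.000118) and Dpysl2. The value of Dchs1 was 3.54 and 2.25 without LPS replicate 1 or 2. Col3a1 also lay higher in both LPS + DEX than in both LPS libraries in RPF, and its part in these increases was not tested. The call of Dpysl2 was lost without the filter and also when any 1 of the LPS or LPS + DEX libraries was left out.

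LPS + DEX against basal cells gave 10 higher and 16 lower genes, or 42.6%, where 4.63 percent of all genes tested passed (1.77 percent higher and 2.86 percent lower). Under median-of-ratios scaling all genes split into 197 higher and 191 lower, against 157 and 253, and these genes stayed at 10 and 16. Without the 6 genes at the filter level in 1 treatment only, 10 were higher and 15 lower (45.5%). Among 75 tested genes past the ratio when it was taken from the LPS libraries, 23 (30.7%) passed. Before the filter these were 78 genes, 51 of them among the 62. The count of 26 was 14 without LPS + DEX replicate 1 and 11 without LPS + DEX replicate 2. Best3 changed by 4.93 ± 0.34 (SE, adjusted p = 6.95e-07), or by 5.63 and 4.22 without basal replicate 1 or 2. Acp4, an acid phosphatase of enamel formation, had 576 and 184 CPM in the LPS + DEX libraries, 309.9 and 179 CPM in the LPS libraries, and 28.2 and 1.97 CPM in the basal libraries, and changed by 5.13 ± 0.72 (SE, adjusted p = 0.000675). That value was 6.78 without basal replicate 1, 3.48 without basal replicate 2, 5.95 without LPS + DEX replicate 2, and 4.31 without LPS + DEX replicate 1, where the call was lost, as it was without the filter. Actr5 changed by 4.0 ± 0.77 (SE, adjusted p = 0.00779). That value was 6.03 without basal replicate 1 and 1.97 without basal replicate 2, and the call was lost without either LPS + DEX replicate and without the filter. Lower genes included Mfge8 at -2.08 ± 0.12 (SE, adjusted p = 1.04e-07), Cdan1 at -2.88 ± 0.21 (SE, adjusted p = 8.89e-07), Pcnx4 at -2.56 ± 0.23 (SE, adjusted p = 1.02e-05), and Vmn1r224, which had 11.5 and 8.73 CPM in the LPS + DEX libraries, 38.6 and 24.3 CPM in the LPS libraries, and 61.8 and 62.5 CPM in the basal libraries and changed by -2.52 ± 0.27 (SE, adjusted p = 5.19e-05). Gm42743 changed by -0.53 ± 0.07 (SE, adjusted p = 0.000525), in a range of 1382 to 2052 CPM.

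**Figure D5:**
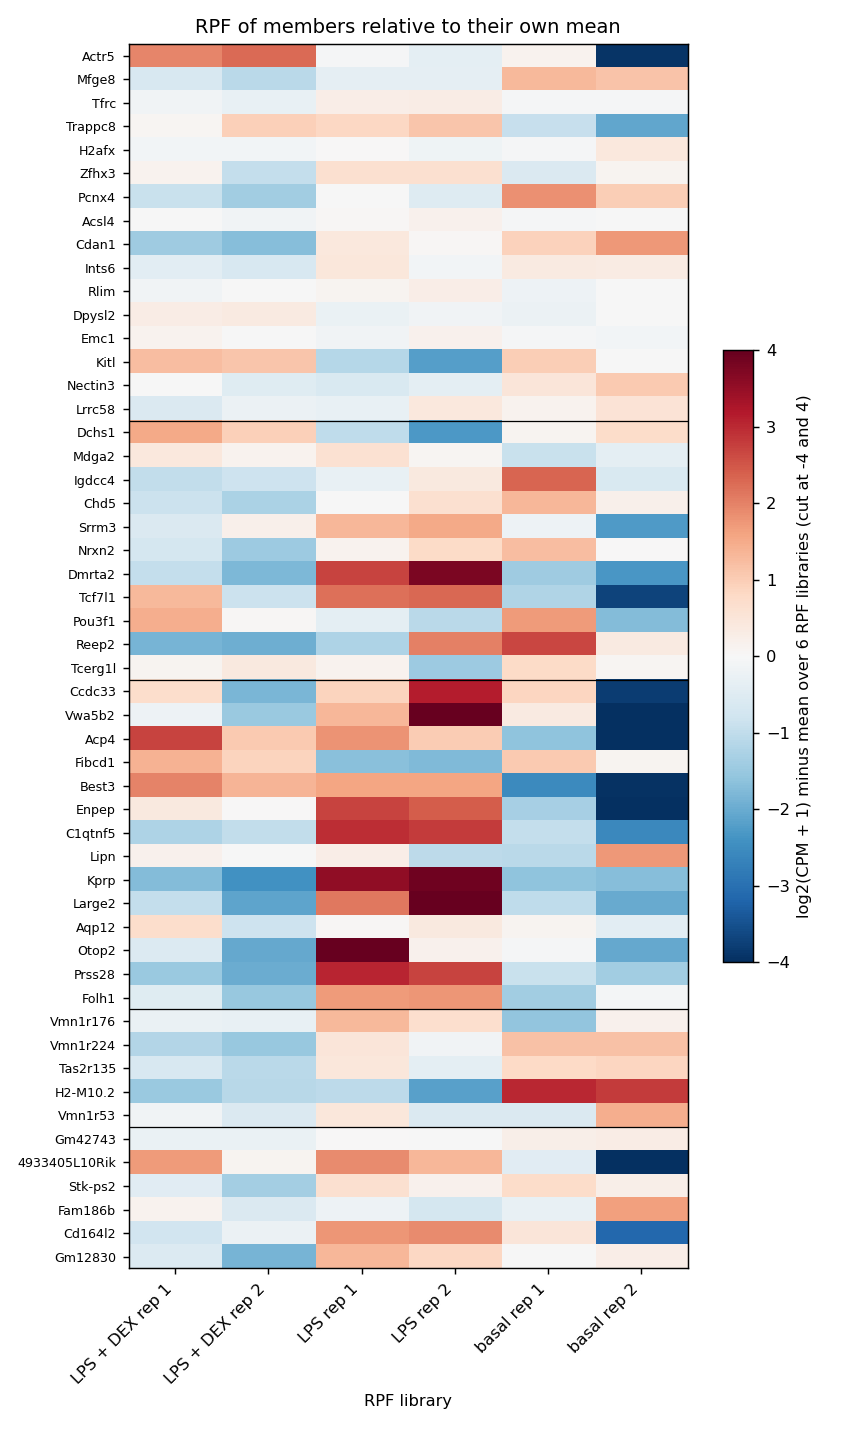
RPF of 52 of the 54 symbolled genes in each library as log2(CPM + 1) minus the gene's mean over the 6 RPF libraries (colour, cut at -4 and 4), with LPS + DEX, LPS and basal libraries as columns and genes in the role groups of the library plot. Blue cells of basal replicate 2 stand out for Actr5, Ccdc33, Vwa5b2 and 4933405L10Rik, and red cells of the LPS libraries for Kprp, Large2 and Prss28.

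Both LPS RPF libraries lay above the other 4 in 19 of 61 genes (31.1%), where 11.7 percent of all genes tested did so, and both LPS + DEX libraries lay below the other 4 in 18 (29.5%), where 12.2 percent did. Without the 6 genes at the filter level in 1 treatment only, these were 14 of 55 (25.5%) and 16 of 55 (29.1%). In all, 43 of the 61 genes passed in at least 1 of the 3 footprint contrasts, 37 of the 55 among them, and 18 in none. The share of all genes tested is known here per contrast only (4.63 to 7.62 percent), not for at least 1 of the 3. These counts are therefore a description. Those 18 included the even genes Acsl4, Rlim, Emc1 and H2afx and 5 of the 8 genes without a symbol, and also Ccdc33, Igdcc4 and Pou3f1, whose basal replicates differed over 4-fold.

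The mRNA of only 26 of the 62 genes passed the filter on low values. For LPS against basal, 2 passed, both higher, where 10.7 percent of all genes tested passed. Dchs1 had mRNA of 24.5 and 20.8 CPM in the LPS + DEX libraries, 16.5 and 18.9 CPM in the LPS libraries, and 6.10 and 4.33 CPM in the basal libraries, a change of 1.60 ± 0.32 (SE, adjusted p = 0.0289). 4933405L10Rik had mRNA of 27.3 and 17.7 CPM in the LPS + DEX libraries, 16.5 and 16.3 CPM in the LPS libraries, and 0.678 and 3.25 CPM in the basal libraries, a change of 2.70 ± 0.52 (SE, adjusted p = 0.0266). With limma-voom neither passed, and neither did when any 1 of the LPS or LPS + DEX libraries was left out, while 8 genes passed without basal replicate 2. Dchs1 was also lost under median-of-ratios scaling. The change of 4933405L10Rik was 2.03 and 3.37 without basal replicate 1 or 2. Its basal mRNA rests on 1 and 6 reads, so the size of this change depends on the added 1. Col3a1 also lay higher in all 4 treated mRNA libraries than in both basal ones, and its part in the change of Dchs1 was not tested. The median over all genes was 0.26 in this contrast, and that scaling moved it by -0.26. For LPS + DEX against LPS, limma and limma-voom called 0 of 9277 genes (0.0 percent), and 183 genes (1.97 percent), 2 of them among the 26, had an unadjusted p under 0.05. For LPS + DEX against basal, 5 genes passed, all higher, where 22.7 percent of all genes tested passed. These were 4933405L10Rik (3.11 ± 0.52), Dchs1 (1.94 ± 0.32), Emc1 (1.65 ± 0.33), Actr5 (1.64 ± 0.31) and H2afx (0.98 ± 0.24), as log2 fold changes with SE, and median-of-ratios scaling, which moved the median of all genes by -0.29, ended the call of H2afx. The change of 4933405L10Rik, which rests on the same few basal reads, was 2.44 and 3.78 without basal replicate 1 or 2. Without LPS + DEX replicate 1 none of the 26 passed, without LPS + DEX replicate 2 only 3 did (Emc1 and H2afx were lost), and without basal replicate 2 the count was 12, with H2afx lost. H2afx was also lost without either LPS replicate. All 7 of the named mRNA calls against basal held without basal replicate 1.

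Other gene classes lay far below these ratios. The 13 mitochondrially encoded genes had a median ratio of 0.118, and 90 ribosomal protein genes 0.656 with a highest of 1.13. Of 8 listed replication-independent histone genes, whose transcripts mostly carry poly(A) tails, H2afx alone reached 8, and the median ratio was 1.05.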

How the data were processed

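The authors deposited, per Ensembl gene and library, CPM values with 1 added. The unit was read from the files: after subtracting 1, 100% of the values of each library are whole multiples of 1 read (tolerance 0.1 read). The sources used here name no aligner, build or counting rule, and values are not scaled to gene length. The 62 genes, the lists and the tests were chosen with earlier results of these data known, and the role groups after their values were seen.

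limma 3.58.1 (limma-trend, R 4.3.3) was fitted to the log2 of the deposited value, log2(CPM + 1), over all genes that reached 10 reads (at median depth) in 2 or more libraries and 15 reads summed over the assay, for the 6 RPF and the 6 mRNA libraries separately, with treatment as the only factor. P-values are two-sided and Benjamini-Hochberg adjusted over all genes tested. They rest on the spread between 2 replicates per group, with each gene's variance drawn towards that of other genes at its level. Between basal RPF replicates, 24.6% of the chosen genes tested differed over 4-fold, against 0.492% of the remaining genes. The SEs of the chosen genes in footprints may thus be too small, and their shares of calls too high. The planned count model was not run, since the added 1 kept the values from being taken as counts, and limma-voom on reads recovered from them replaced it. limma was also run on simulated counts that had the same spread setting for every gene. That run cannot show how limma behaves for genes as uneven as those chosen here. Named genes were the 15 highest in RPF, the 10 highest in ratio, the strongest changes per contrast, 3 genes on either side of the threshold and up to 4 per role group; some genes that this rule takes are not reported here. Read limits cover counting error only.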

Additional observations from a re-analysis of the deposited data

How the results depend on the processing

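With no filter on low values, fewer genes passed in the footprint contrasts: 281 of all genes and 15 of the 62 for LPS against basal, 273 and 12 for LPS + DEX against LPS, and 132 and 9 for LPS + DEX against basal. limma-voom called 619 genes for LPS + DEX against basal in footprints, against 410, and 464 genes, with 0 of the 62, for LPS against basal in mRNA, against 994 and 2. Median-of-ratios scaling gave 522 and 1 in that mRNA contrast, and turned its split to 190 higher and 332 lower, against 838 and 156; for LPS + DEX against basal in mRNA it gave 708 higher and 837 lower, against 1714 and 392. The planned count-model test was not run. A replicate block gave 390 genes and 1 of the 62 for LPS against basal in mRNA, where Dchs1 lost its call, and ended 2 footprint calls of Gm42743. Over all genes tested, correlations of the replicate difference between treatments were -0.18 to 0.11, which gave no sign that replicate numbers pair the samples. Such correlations were not computed for the 62 genes alone.

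Leaving out 1 library at a time gave, for footprints of LPS against basal, 310 to 709 genes and 25 to 37 of the 62; for LPS + DEX against LPS, 103 to 868 and 10 to 37; and for LPS + DEX against basal, 100 to 457 and 11 to 35. In mRNA the ranges were 6 to 2179 and 0 to 8, 0 to 5 and 0 to 0, and 1 to 2875 and 0 to 12 for the same contrasts. Of 68 changes of genes under the naming rule, 0 reversed and 29 kept their call under all 11 alternatives. A ratio of 4 gave 261 genes and a ratio of 16 gave 34. Leaving out 1 library gave 58 to 70 genes, and other ways of averaging or flooring gave 50 to 86.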
